A study of Mus musculus with 41 samples.

Results

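PLK2null_7753, PLK2null_1987, PLK2null_1988 and PLK2null_1989, named here by the end of their labels and drawn in the plots by number, are 4 of the 28 mammary tumors of the series that lack both Plk2 and p53, in a series of 41 tumors. They were set against the other 21 Plk2-/-; p53-/- tumors, with PLK2null_732, PLK2null_733 and PLK2null_743 left out. The 4 tumors were chosen by how alike their measured profiles are, so every gene of these tumors was in view when they were selected. All differences between the 4 and the 21 are therefore descriptions and carry no test. The 25 tumors share their genotype, Plk2-/-; p53-/- in the Balb/c strain, and were grown without treatment as orthotopic mammary tumors in syngeneic hosts. The 13 p53-/- tumors of the series, which keep Plk2, are given beside some values. The Plk2-/-; p53-/- tumors trace back to transplanted mammary epithelium, and the hosts were wild type for both genes. Pieces of the tumors were frozen for later implantation. Neither the labels nor the methods say whether PLK2null_1987, PLK2null_1988 and PLK2null_1989 were grown from PLK2null_7753, so the 4 may be 4 grafts of a single tumor. The 21 hold further sets of alike, closely numbered tumors and are not 21 independent tumors. No age is given for the hosts.

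The measured quantity was the abundance of each gene's mRNA in bulk tumor, read as paired ends. Values are gene counts, scaled in every tumor to an upper quartile of 1000 over the genes above 0. From the step on which the lowest values lie, the 4 tumors held 34128859 to 41732697 fragments on genes and the 21 held 31910319 to 53244315. A count of 3 reads was worth 1.84 to 2.25 in the 4 tumors, and values at or under this floor were not distinguishable from absence. This floor covers counting error only. No pair of the 4 was a repeat of the same library, since their counts differed by a median chi-square of 5.66 to 16.4 per gene, where sampling noise alone gives less than 1. In bulk tissue, fewer cells of a type and less RNA per cell cannot be told apart. Levels depend on gene length, so they are compared between tumors and not between genes. Values of a gene are given for PLK2null_7753, PLK2null_1987, PLK2null_1988 and PLK2null_1989 in that order, and the range that follows is that of the 21 with their median. The labels of the 13 p53-/- tumors end in ROSEN and a number, which the other labels lack and do not explain. Genotype cannot be told apart from whatever this ending marks, wherever those 13 are used. Over all 17014 genes that passed a mean of at least 10, the median difference between the 4 and the 21 was -0.11 on log2(value + 1), or -0.0059 when the tumors were rescaled by trimmed means, and differences are to be read against that shift.

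Met, at chr6:17463800-17573980 on the plus strand of mm10, encodes the receptor tyrosine kinase for hepatocyte growth factor, which drives growth, motility and survival of epithelial cells. It lies beside Tes, Cav1, Cav2 and Capza2. In tumors without p53, stretches of chromosomes are often gained, lost or rearranged, and genes of such a stretch can move together in RNA. RNA alone does not give the DNA copy number, which was not measured here.

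The profiles that chose the tumors were compared over the 2000 genes that varied most in the 25 tumors. Pearson's r across these genes was 0.62 to 0.79 for the 6 pairs within the 4 tumors, highest between PLK2null_7753 and PLK2null_1987. The closest of the 21 to any of the 4 was PLK2null_1980, at an r of 0.42, and the closest of the 13 p53-/- tumors reached 0.086. Genes are not independent replicates, and all these values describe the choice. PLK2null_7764, PLK2null_1977, PLK2null_1980 and PLK2null_1981, called the PLK2null_7764 set below, hold that tumor and serve as a comparison.

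The sequences upstream of Met and Capza2 are shown because these neighbours, transcribed from the same strand, lay on opposite sides of a step from high to low values in these tumors. Each holds the 250 bases before the RefSeq start of the gene on GRCm38.p6, plus strand, at chr6:17463707-17463956 for Met and chr6:17636760-17637009 for Capza2. Gene positions elsewhere in the text are from GENCODE, which starts Met at 17463800 and Capza2 at 17636234. The sequences therefore overlap the genes as GENCODE draws them. Capitals mark the GC box motif GGGCGG, searched on both strands (CCGCCC on the other).
Met: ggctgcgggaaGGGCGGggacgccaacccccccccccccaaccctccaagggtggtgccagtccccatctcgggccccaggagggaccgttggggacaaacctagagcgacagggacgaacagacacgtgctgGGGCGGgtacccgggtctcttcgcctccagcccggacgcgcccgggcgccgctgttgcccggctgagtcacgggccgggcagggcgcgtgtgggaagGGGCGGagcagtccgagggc
Capza2: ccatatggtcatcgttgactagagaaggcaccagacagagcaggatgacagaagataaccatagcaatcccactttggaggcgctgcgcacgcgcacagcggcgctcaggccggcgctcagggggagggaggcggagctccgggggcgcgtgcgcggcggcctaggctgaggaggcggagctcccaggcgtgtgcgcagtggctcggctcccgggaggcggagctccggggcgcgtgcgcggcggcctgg
The Met sequence held 3 copies of the motif and the Capza2 sequence 0. Of 32851 RefSeq promoter sequences cut to the same length, 32.7% held it. A match describes the letters only.

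Plk2 and Trp53, the genes targeted in these mice, are given first as a check of the labels. Plk2, a polo-like kinase of centriole duplication, was measured at 238, 247, 228 and 326, inside the range of the 21, 83.3 to 553 (median, 347), and below the median of 3402 in the 13 p53-/- tumors. Trp53 transcripts were present at 2869, 2115, 3914 and 2948, and the 21 spanned 1563 to 3557 (median, 2581). A transcript of the targeted locus can remain in a knockout, so its level does not check the Trp53 label.

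Met was measured at 158167, 195174, 203935 and 134498. In the 21 the values ran from 419 to 201396 (median, 76088), and the 13 p53-/- tumors from 144 to 93104. The 4 tumors took ranks 6, 3, 1 and 8 of the 25 and overlapped the high end of the 21, so Met did not set them apart. Their mean on log2(value + 1) was 2.996 above the mean of the 21 (SD, 0.28 over the 4 tumors). Met was thus high in all 4 tumors, as it was in many of the 21. Hgf, which encodes the ligand, was at 53.2, 91.6, 18.7 and 68.5, within the range of the 21, 16.9 to 103 (median, 46.0). Of 9 measured genes of the Met receptor, its ligand and its partners, 1 lay above all 21 and 0 below. Of all 17014 genes, 1.2% lay above and 1.53% below. The gene above was Grb2, the adaptor that links Met to Ras, at 3246, 3653, 3602 and 3459, against 1003 to 3137 (median, 2152.5). Grb2 lies in a raised segment of chromosome 11, described below.

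At this locus the 4 tumors lay below the 21 at Capza2 and some genes beyond it, on the far side of Met. On the near side, the noncoding transcripts D830026I12Rik and Gm15581, given below, lay above the 21. Capza2, which encodes a subunit of the actin capping protein, starts 62.3 kb after Met ends. Capza2 was measured at 2679, 2789, 2352 and 1888, below all of the 21, which ran from 3441 to 224288 (median, 10317). Farther in that direction St7 and Lsm8 also lay below all 21. St7 had values of 294, 177, 189 and 147 against 346 to 12269 (median, 2407), and Lsm8, a component of the U6 small nuclear RNA particle, 1111, 985, 868 and 685 against 1339 to 59995 (median, 5097). Between St7 and Lsm8, Wnt2, Cftr and Cttnbp2 had lower means in the 4 tumors but overlapped the 21. Tspan12, a tetraspanin farther along the chromosome, was also below all 21, at 491, 73.0, 419 and 452 against 637 to 25279 (median, 2164). Of 14 measured genes from Capza2 to Lsm8, all had a lower mean in the 4 tumors and 4 lay below all 21. Over all 17014 genes, 7083 had a higher mean in the 4 tumors and 1.53% lay below all 21. The ends of this run were set after the values were seen. Its median deviations from the median of the 21 were -2.01, -1.92, -1.59 and -2.63 in log2 units. The 13 p53-/- tumors ran from -2.93 to 0.011, so low values here were not particular to the 4.

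On the near side of Met the genes were high. Tes, an actin-binding LIM protein gene, was measured at 139906, 180915, 182140.3 and 92971 (1955 to 260707, median 24551, in the 21). Cav2 and Cav1 encode the caveolins that coat caveolae. Cav2 reached 51918, 57724, 76472 and 38130.2, where the median of the 21 was 8261. Cav1 was less uniform, at 16383, 7519.5, 32613 and 7512, with a median of 4571 in the 21. These 3 genes overlapped the 21, since PLK2null_7749, PLK2null_1973, PLK2null_1974 and PLK2null_1975, called the PLK2null_7749 set below, spanned 204530.4 to 260707 for Tes, 56033 to 114730.4 for Cav2 and 8343 to 91171 for Cav1.

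Beside these genes, 2 noncoding transcripts of unknown role were present in the 4 tumors and near absent in the 21. These were chosen after their values were seen, since predicted names are outside the rule for named genes. D830026I12Rik had values of 625, 561, 856 and 569.9, against 0 to 38.8 (median, 1.95) in the 21 and at most 3.98 in the 13 p53-/- tumors. Gm15581, an antisense transcript that spans Cav2 and Cav1, had 266, 258, 375 and 241 against 0 to 23.2 (median, 1.69). No value of the 21 came near those of the 4. Whether counting used the strand is not given in the sources used here, so reads of Gm15581 cannot be told apart from those of the genes it spans. The spans of D830026I12Rik (chr6:17197751-17210152) and Gm15581 (chr6:17206823-17385604) also overlap, so they may not be 2 separate signals.

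**Figure D1:**
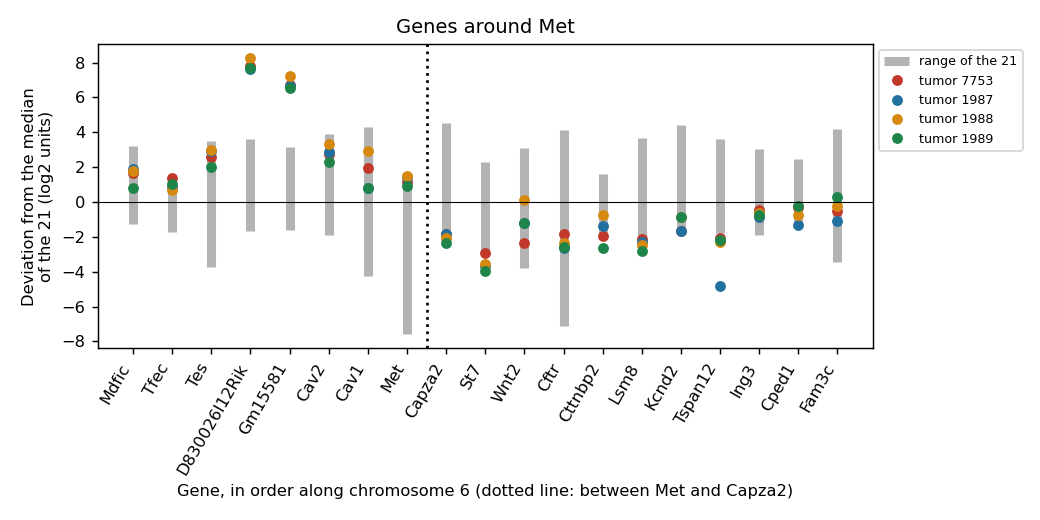
Deviation of 19 genes on chromosome 6, in chromosome order on the horizontal axis, from the median of the 21 tumors (log2 units); points are the 4 tumors and grey bars the range of the 21. Capza2, St7, Lsm8 and Tspan12 lie below the bars, D830026I12Rik and Gm15581 above them, and the dotted line marks the step between Met and Capza2.

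The ratio of Met to Capza2 within a tumor does not depend on the scaling of that tumor, and gene length cancels when it is compared between tumors. On the log2 scale it was 5.88 to 6.44 in the 4 tumors and -3.13 to 3.85 in the 21. The 13 p53-/- tumors ran from -4.18 to -0.36. Beside the 4, 15 of the 21 had Met above 10000, and their ratio ran from -1.02 to 3.85. In the PLK2null_7749 set, Met was 144362 to 201396 and Capza2 178079 to 224288, which gave a ratio of -0.30 to -0.16. In the PLK2null_7764 set, Met was 99771 to 128895, Capza2 10317 to 15962 and the ratio 2.87 to 3.45. In PLK2null_7750, PLK2null_1984, PLK2null_1985 and PLK2null_1986, Met was 60280 to 83392 and Capza2 5293 to 7446. High Met thus went with Capza2 levels that were graded across tumors, from high in the PLK2null_7749 set to lowest in the 4.

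**Figure D2:**
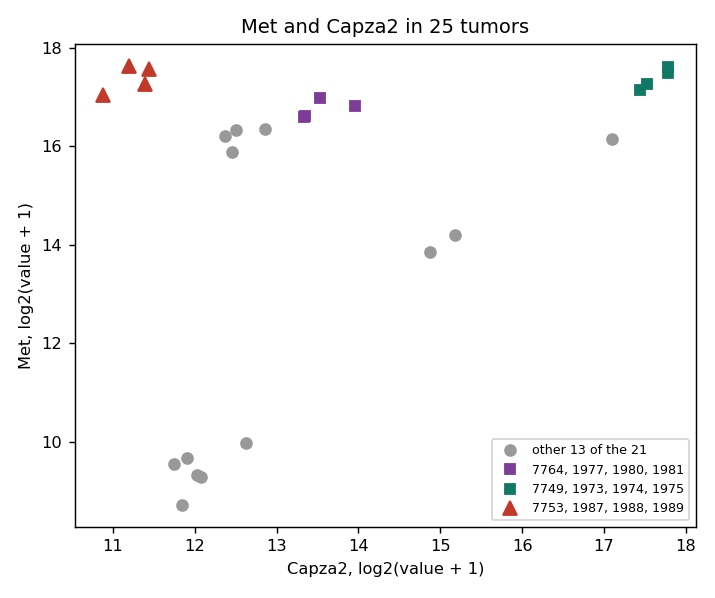
Met against Capza2 in the 25 tumors, both as log2(value + 1), 1 point per tumor. The 4 tumors (triangles) combine high Met with the lowest Capza2 values, whereas the PLK2null_7749 set is high in both and the 6 tumors at the bottom have little Met.

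To find such runs over the genome, 16399 genes with a single position were ordered along the chromosomes. Each tumor's deviation from the median of the 21 was centred on that tumor's own median, and runs of 21 neighbouring genes were kept where the median was at least 0.4 above (or below) zero in each of the 4. This gave 15 raised and 14 lowered segments. In 5 of the raised and 7 of the lowered segments, the 4 tumors lay outside the whole range of the 21. Runs of 7 genes with a median of at least 1 above or below zero gave 14 raised and 17 lowered stretches, of which 9 and 6 lay outside that range. The segments were found in the same values that they describe.

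The raised segment with the largest median deviation lay at the far end of chromosome 1. At chr1:171150711-178337797 (mm10), a segment of 79 genes had a median deviation of 1.06, 1.36, 1.42 and 1.48 on the log2 scale. None of the 21 exceeded 0.29, and the 13 p53-/- tumors ran from -1.08 to 0.17. Of the 79 genes, 30 lay above all 21, where 1.2% of all 17014 genes did. Both figures use the values that chose the tumors.

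The lower edge of the raised stretch was sharp. Ppox, which encodes a mitochondrial enzyme of heme synthesis, was low at 423, 514, 480.3 and 741 against 830.5 to 2279 (median, 1112). Its neighbour Usp21, a deubiquitinase gene that starts 0.758 kb after Ppox ends, was above all 21, at 2919, 2776, 3928 and 4161 against 1166 to 1964.3 (median, 1512). From Usp21 to Adss, 30 of 65 measured genes were above all 21, and of the 27 genes with a mean of at least 1000, 19 were. These borders were set after the values were seen.

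The raised genes have varied roles. Tagln2, an actin-binding transgelin, was measured at 86778, 94948, 91095 and 83799, where the 21 ran from 3021 to 21286 (median, 10375) and the 13 from 5714 to 21185. The 4 values were close together and far above the highest of the others. F11r, which encodes the junctional adhesion molecule of epithelial tight junctions, was at 21261, 26337, 31089.8 and 40006 (2613 to 7518, median 5362, in the 21). Igsf8, a tetraspanin partner, was at 30111, 33261, 33983 and 47585 (945 to 29531, median 7011, in the 21). Genes that most cells use were raised as well. Copa, of the COPI vesicle coat, was at 41982, 42968, 47104 and 52108 (7247 to 12585, median 8626, in the 21). Ncstn, a subunit of gamma-secretase, was at 15678, 15699.7, 20684 and 26051 (2080.0 to 6822, median 4444, in the 21). Pfdn2, of the prefoldin chaperone, was at 7194, 7751, 10242 and 9745 (1145 to 1949, median 1487, in the 21). The transcription factor gene Usf1 was at 8070.1, 10106, 9458 and 10142 (1655 to 2413, median 1873, in the 21). For Copa, Ncstn, Pfdn2 and Usf1 the lowest of the 4 values lay well above the highest of the 21. In the 13 p53-/- tumors Copa and Ncstn reached 12356 and 5625, but Pfdn2 and Usf1 reached 13185 and 13864, above the values of the 4.

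Several genes of this stretch are usually confined to other tissues. Casq1, a calcium store protein of skeletal muscle, was at 251, 179.7, 451 and 877 against 9.34 to 97.6 (median, 26.2). The potassium channel gene Kcnj9 was at 222, 171, 89.8 and 230.2 against 1.51 to 48.2 (median, 17.5). Neither gene overlapped the 21. Atp1a4, which encodes a sodium pump subunit of sperm, was at 119.7, 128, 543 and 878 against 1.75 to 99.1 (median, 9.92). PLK2null_7753 and PLK2null_1987 lay just above the 21 and the other 2 tumors far above them. Skeletal muscle markers did not move with them, at a median difference of -0.14 over 9 genes and summed levels of 165 to 261, inside the 63.8 to 3952 of the 21.

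The Ifi200 cluster, whose interferon-inducible proteins sense nucleic acids, lies in the same stretch. Ifi204 was above all 21, at 5774, 9842, 3069 and 3867 against 97.4 to 2242 (median, 751). Ifi203 was at 9039, 17017, 4725 and 8084 (341 to 4798, median 1137, in the 21) and Mndal at 4102, 8588, 1932 and 3582 (95.4 to 2412, median 537, in the 21), with PLK2null_1988 inside the range in both. The cluster was thus high in the 4, and highest in PLK2null_1987. A list of 9 measured members of the family was written after Ifi204 was seen to be high. Its median difference was 2.67, and 1 member, Ifi204 itself, lay above all 21, where 1.2% of all 17014 genes did. Members of this family resemble each other, so reads may be divided among them uncertainly. Aim2, in the same family, lay within the range of the 21, at 227, 299.97, 121 and 199 against 24.1 to 529.9 (median, 128).

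Beyond Adss the deviations fell back and then changed sign. Desi2 was at 1995, 2284, 2214 and 2194 against 724 to 2257 (median, 1435). From Cox20 to the end of the chromosome, 114 of 120 genes had a lower mean in the 4 tumors and 27 lay below all 21. Over all 17014 genes, 7083 had a higher mean in the 4 tumors and 1.53% lay below all 21. The lowered segment of 117 genes, at chr1:178319130-195037904, had median deviations of -0.81, -0.85, -1.09 and -0.72. The lowest of the 21 was -0.52, and the lowest of the 13 p53-/- tumors -0.75.

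Kcnh1, a voltage-gated potassium channel gene, had the largest difference of the genes below all 21. Its values were 1.97, 1.84, 0.749 and 2.88, around the floor of 3 reads, while the 21 held 6.03 to 726 (median, 211). H3f3a, which encodes the replication-independent histone H3.3, was at 4098, 3798, 3321 and 4169 against 7258 to 13247 (median, 10355). The 4 values lay close together and below every other tumor. Parp1, the sensor of DNA strand breaks, was at 1628, 1731, 1180.4 and 1259, and PLK2null_7753 and PLK2null_1987 lay just inside the range of the 21, 1571 to 4611 (median, 3293). The next 2 genes lay below all 21. Cenpf, a kinetochore gene, was at 1319.8, 1089, 832 and 754 against 1344 to 3937 (median, 2323). Traf5, an adaptor of tumor necrosis factor receptors, was at 67.5, 88.3, 48.7 and 57.4 against 118 to 394 (median, 198). Against this run, Lamb3, a chain of the basement membrane protein laminin-332, had 3271, 3894, 2383 and 4032, above the median of 946 but inside the range of the 21.

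**Figure D3:**
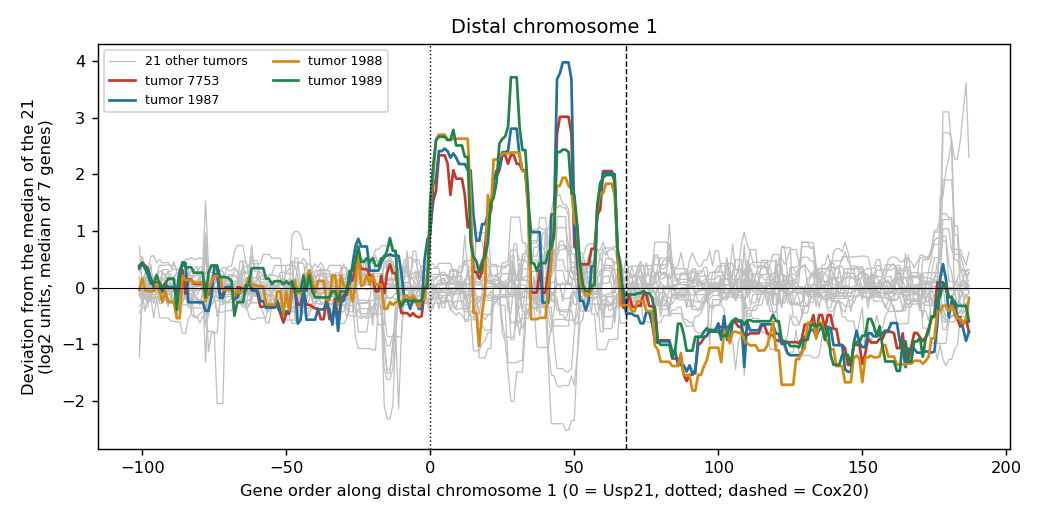
Running median over 7 genes of the deviation from the median of the 21 (log2 units), by gene order along distal chromosome 1; colored lines are the 4 tumors and grey lines the 21 others. The 4 lines rise at Usp21 (dotted), fall back before Cox20 (dashed) and stay below zero for most of the genes beyond it.

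Chromosome 11 held 2 further raised segments near its end. At chr11:103697724-109995845, 60 genes had median deviations of 0.52, 0.59, 0.80 and 0.70, with at most 0.26 in the 21. At chr11:115187487-121716306, the values for 162 genes were 0.53, 0.51, 0.71 and 0.73, with at most 0.23 in the 21. In the 13 p53-/- tumors the second segment reached 1.06. The 28 genes between them had 0.13, 0.23, 0.47 and 0.60, of which PLK2null_7753 and PLK2null_1987 lay within the range of the 21, whose highest was 0.28. Of the 60 genes of the first segment 16 lay above all 21, and of the 162 of the second 32, where 1.2% of all 17014 genes did. Both counts use the values that chose the tumors.

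In the first chromosome 11 segment, Helz, an RNA helicase gene, was at 3880.5, 4019, 4475 and 4593 against 1300.5 to 2429 (median, 1937). Bptf, a subunit of the NURF chromatin remodeler, was at 7621, 7747.7, 9335 and 7682 against 2863 to 4983 (median, 3664), and Ern1, the IRE1 sensor of unfolded proteins, at 2068, 2097, 2330.1 and 2265 against 621 to 1916 (median, 1027). All 3 lay above all 21. Prkca, which encodes protein kinase C alpha, and Axin2, a target and inhibitor of Wnt signalling, were high but overlapped the 21. In the second, Birc5, the survivin of dividing cells, was at 4175, 3527, 2682 and 2471 against 1167 to 2436 (median, 1586), and Grb2, described above, lies there too. Lgals3bp, a secreted galectin-3 ligand, was at 26331, 28527, 19445 and 28954 (729 to 23164, median 5612, in the 21). Socs3, a feedback inhibitor of cytokine signalling, was at 7482, 7928, 5016 and 5936 (529 to 5531, median 1942, in the 21), and PLK2null_1988 lay within the range for both.

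Foxj1, the transcription factor that switches on motile cilia, lies in the second chromosome 11 segment. It was measured at 4969.8, 3135, 1228 and 4146, while the 21 ran from 3.35 to 538 (median, 67.4) and the 13 p53-/- tumors from 8.22 to 633. The lowest of the 4, in PLK2null_1988, was above the highest of the others. A list of 50 cilia genes was then written, after Foxj1 had been seen, of which 26 were measured. Of these, 16 had a higher mean in the 4 tumors. Above all 21 lay 3 of them, Foxj1 itself, Ccdc114 and Kif27, and the list's median difference was 0.51, beside -0.11 over all genes. Among all 17014 genes, 7083 had a higher mean in the 4 tumors and 1.2% lay above all 21. Ccdc114 and Kif27 lie on chromosomes 7 and 13. Ccdc114, which docks outer dynein arms, was at 376, 299, 316 and 315 against 3.13 to 206 (median, 44.4). Kif27, a kinesin of motile cilia, was at 316, 302, 218 and 279 against 13.1 to 154 (median, 62.5). Cfap44, of the cilium axoneme, was at 109, 156, 18.7 and 154 against 0 to 35.1 (median, 5.29), with PLK2null_1988 inside the range. Ccdc40, a cilium assembly gene in the same chromosome 11 segment as Foxj1, had a lower mean in the 4 tumors and overlapped the 21, at 0.657, 3.68, 10.5 and 5.75 against 3.01 to 90.5 (median, 19.9). The outer dynein arm genes Dnaic1 and Dnaic2 did not share this, with at most 2.25 and 3.60 in the 4, near the floor. Dnah5, Dnah9, Hydin, Mcidas and Ccno did not pass the filter on low values.

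Chromosome 6 also held a short raised stretch of 14 genes at chr6:135362545-137170497, with median deviations of 1.15, 1.37, 1.41 and 1.16 and at most 0.72 in the 21. Pde6h, which encodes the inhibitory subunit of the cone photoreceptor phosphodiesterase, had the largest difference among the genes named by rule. Its values were 415, 434, 372 and 283, where the 21 held 0 to 39.8 (median, 1.10), most of them at or under the floor. Smco3 beside it was at 124, 114, 247 and 129.6 against 0 to 29.7 (median, 2.95). Wbp11, a splicing factor gene, was at 7998, 7857, 9635 and 5913 against 1613 to 3364 (median, 2467). All 3 genes left a gap to the 21. Art4, an ADP-ribosyltransferase gene in the same stretch, went the other way, at 4.596, 2.45, 3.74 and 5.04 against 5.25 to 642 (median, 50.2).

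The other segments were weaker. Of the raised segments on chromosome 14, the one at chr14:34410734-45598512 (29 genes) lay outside the range of the 21 at 0.63, 0.58, 0.67 and 0.48. In that segment the 13 p53-/- tumors reached 0.78, above the 4. Rb1, the retinoblastoma tumor suppressor, lies on the same chromosome and was above all 21 in the 4 tumors, at 3379, 3736, 3460.1 and 3597 against 476 to 2853 (median, 871). None of the 21 reached the 4 in Rb1. Sox21, a transcription factor gene farther along, was at 747, 833, 599 and 718 against 0 to 499 (median, 29.9). A segment of 23 genes at chr8:107046289-109962203 was raised by 0.37, 0.39, 0.55 and 0.41, only just outside the highest of the 21 (0.35). The 13 p53-/- tumors reached 0.59 there, also above the 4. Lowered segments outside the range of the 21 were found at chr1:132356315-134361979, at chr2:24949792-25622005, chr2:148681023-152313996 and chr2:168260117-173218923, at chr5:125441568-129903623 and at chr10:25169090-31609184. Their median deviations in single tumors ran from -0.99 to -0.36. The lowest of the 13 p53-/- tumors was -1.22, -0.75 and -0.74 in the segments starting at chr1:132356315, chr2:168260117 and chr10:25169090, below all 4. It was -0.53, -0.36 and -0.082 in those starting at chr2:148681023, chr2:24949792 and chr5:125441568, not below all 4. The remaining broad segments overlapped the 21.

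Within these segments single genes lay outside the 21. In the lowered stretch nearer the centre of chromosome 1, Snrpe, of the spliceosome core, was at 756, 898, 537 and 739 against 934 to 2857 (median, 1637). Sox13, a transcription factor gene there, was at 408, 469, 225 and 124 against 469 to 5073 (median, 1309), with PLK2null_1987 at the lower edge of the 21. Mdm4, an inhibitor of p53, was at 2606, 2651, 3788 and 4706 against 3244 to 7065 (median, 4127), so that only PLK2null_7753 and PLK2null_1987 lay below. The p53 partner was thus not low in all 4. On chromosome 2, Bmp7, a bone morphogenetic protein gene, was near the floor at 9.19, 1.23, 3.74 and 4.32, but some of the 21 were as low (0.670 to 6035, median 179). Ninl, a centrosome gene on the same chromosome, was below all 21, at 265, 223, 159 and 197 against 292 to 859 (median, 514). A short run at chr5:36868513-38220457 held Evc and Evc2, partners in hedgehog signalling at the cilium. Evc was at 61.7, 25.8, 95.1 and 34.5 against 28.1 to 1776 (median, 613), and Evc2 at 53.2, 28.2, 129 and 43.2 against 29.5 to 1557 (median, 1008). Both were low in the 4 tumors and inside or just below the range of the 21. On chromosome 3, Cd1d1, which presents lipids to NKT cells, was below all 21, at 129, 78.1, 169 and 138 against 200.2 to 703 (median, 379). A short raised run at chr16:32735886-33056218 held the membrane mucin genes Muc4 and Muc20. Muc4 was at 378, 601, 1175 and 187 and Muc20 at 624, 740.1, 459 and 838, above medians of 80.8 and 227 but inside the range of the 21. On chromosome 8, Terf2, a telomere protein gene, was at 1192, 1119, 1272 and 1303 against 629 to 1139 (median, 826), with PLK2null_1987 just inside.

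Taking all genes, 113 lay above all 21 with a mean difference of at least 1 on log2(value + 1), which is 0.664% of 17014 genes. Another 162, or 0.952%, lay below all 21 by as much. Without the condition on size, 1.53% lay below all 21. Of the genes above, 36 lay on chromosome 1, or 3.42% of its measured genes, and 22 on chromosome 11, or 1.67%. Of the genes below, 33 lay on chromosome 1, or 3.13% of its measured genes. Chromosomes 2, 6 and 17 held 19, 14 and 13, or 1.44%, 1.58% and 1.65%, closer to the share over all genes. Segments that stood outside the 21 held 56 of the 107 genes above with a known position (52.3%), while they held 2.28% of all genes with a position. For the genes below, the segments held 35 of 154 (22.7%), beside 1.98% of all. The rest lay outside those segments, some of them in runs such as the one beyond Met. Since the same values found the segments and the genes, these shares describe and do not test.

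Among the genes above all 21 outside these segments, some encode surface proteins, ligands or chromatin factors. L1cam, a neural cell adhesion molecule on the X chromosome, was at 772, 2149, 1698 and 2708 against 62.1 to 759 (median, 254). Sfmbt2, a Polycomb gene on chromosome 2, was at 2734, 3443, 1578 and 1713 against 7.53 to 744 (median, 206). Tnfsf18, the ligand of the T cell receptor GITR, was low in absolute terms, at 27.6, 50.9, 42.7 and 309 against 0.652 to 24.1 (median, 4.24), with PLK2null_1989 far above the other 3. The other 3 values lay close to the highest of the 21. Hrct1 was at 638, 317, 246 and 1184 against 9.93 to 238 (median, 71.0), and Ip6k3, an inositol phosphate kinase gene, at 57.8, 65.0, 79.3 and 23.7 against 0 to 9.92 (median, 5.01).

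Several genes that lay below all 21 are given next. Spdef, a transcription factor of secretory epithelium, was at 3.94, 3.07, 2.25 and 2.88, near the floor, whereas the 21 held 5.95 to 659 (median, 87.3). Cxcl17, a mucosal chemokine, was at 4.596, 1.84, 1.497 and 2.16 against 8.04 to 239 (median, 47.4). Fbln1, a basement membrane glycoprotein, was at 118, 35.0, 67.4 and 84.2 against 133 to 3128 (median, 1117). Zfp503, a zinc finger repressor gene expressed in mammary epithelium, was at 106, 35.6, 71.9 and 139.5 against 287 to 1958 (median, 796). Of these, Fbln1 and Zfp503 were well above the floor in the 4 tumors. Eva1a, a regulator of autophagy, was at 26.3, 11.7, 5.24 and 18.7 against 28.8 to 645 (median, 298). Wipf3, an actin regulator, was at 10.5, 1.84, 18.7 and 34.3 against 90.0 to 1198 (median, 206). Other genes of this group, Tmsb15b1, Etnk2, Sdsl, Tmc5, Tmigd1 and Aldh1a7, were at or close to the floor in the 4 tumors, so the size of their differences depends on the pseudocount.

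**Figure D4:**
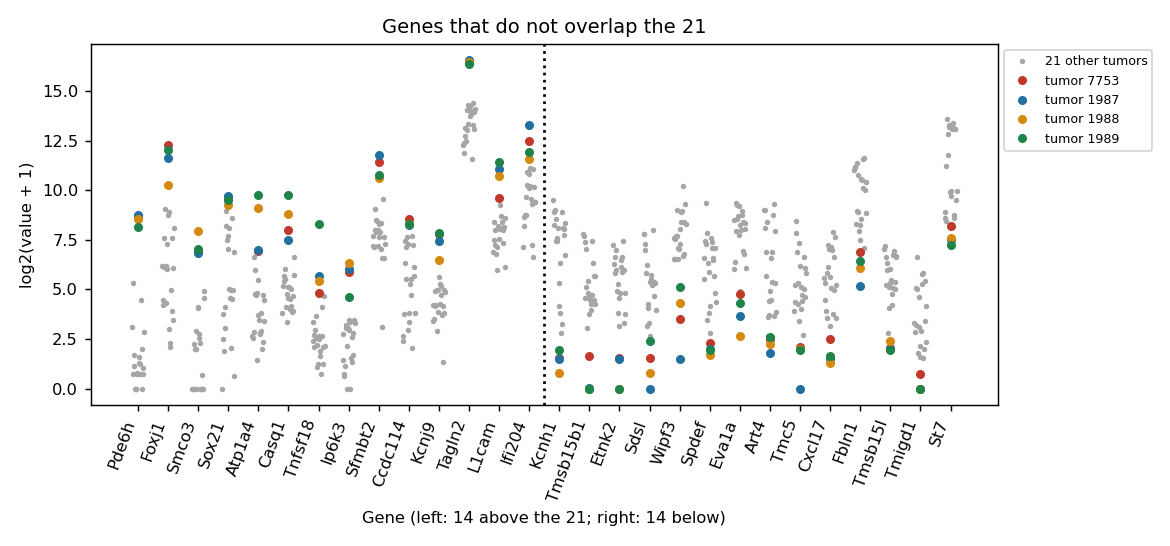
Values as log2(value + 1) of 14 named genes with large differences above (left of the dotted line) and 14 below (right), chosen because they do not overlap; colored points are the 4 tumors and grey points the 21. For St7 and Tnfsf18 the groups nearly touch, whereas Tagln2 (lowest of the 4, 83799) leaves a wide gap to the 21.

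Epithelial markers did not set the 4 tumors apart from the 21. Of 12 genes for luminal keratins and adhesion, none lay outside the 21 in all 4 tumors, and the list's median difference was 0.43. Krt8, a keratin of simple epithelium, was at 15058, 22002, 13086 and 20127, and Epcam, an epithelial adhesion molecule gene, at 15737, 14492, 19349 and 21579, with medians of 18998 and 15829 in the 21. Muc1, an apical mucin, was 6026, 6685, 6203 and 10127, so that PLK2null_1987 and PLK2null_1989 exceeded the 21 (80.0 to 6336, median 1010.1). Of 15 basal and myoepithelial genes, none did so either, and the median difference was 0.63. Krt14, a basal keratin, was at 5445, 3742, 3338 and 2347 against 9.65 to 4931 (median, 714), while Acta2, the smooth muscle actin of myoepithelial cells, was at 2242, 1123, 2472 and 2470.0, with a median of 3207 in the 21. Keratins of the basal layer were thus present, most in PLK2null_7753. Krt5, the partner of Krt14, was at 594, 238, 45.6 and 72.5, where the median of the 21 was 11.6. Trp63, the basal regulator p63, was at 1455, 734, 191 and 856, also above the median of 91.0. Luminal progenitor genes (12 measured) and genes of hormone-sensing cells (12) had no member outside the 21, at median differences of 0.36 and -0.078. Milk proteins and alveolar regulators had 0.46 over 13 genes. For mesenchymal genes the median difference was -0.33 over 12 genes.

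Signalling and cell cycle lists had few members outside the 21. Median differences were -0.038 for ErbB receptors and ligands, -0.52 for the FGF family and -0.20 for MAPK feedback genes. They were 0.052 for the PI3K pathway and -0.0058 for Ras genes. The lists for Wnt, Notch, TGF-beta and BMP, Hippo targets and the Myc family had no gene outside the 21 and medians of -0.0021, 0.046, 0.017, 0.35 and 0.059. In the list of G1 cyclins, kinases and inhibitors, Rb1 was above all 21 (median of the list, 0.069). Proliferation genes had a median difference of -0.32 and mean deviations of 0.27, 0.067, -0.44 and -0.77, against -0.51 to 0.60 in the 21. PLK2null_1989 thus lay below all 21, while Birc5, on chromosome 11, was above all 21. Plk1, the mitotic polo-like kinase, was at 2098, 1595, 1274 and 889, so that PLK2null_7753 exceeded the 21 (822 to 1966, median 1441) and PLK2null_1989 lay near their lowest value.

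Interferon-stimulated genes were higher on average but uneven. All 17 measured genes had a higher mean in the 4 tumors, at a median difference of 1.43, and none lay above all 21 in every tumor. Among all 17014 genes, 7083 had a higher mean and 1.2% lay above all 21. The list's mean deviation was 1.65, 2.35, -0.14 and 0.90, against -2.99 to 1.31 in the 21. PLK2null_7753 and PLK2null_1987 thus lay above the 21, while PLK2null_1988 and PLK2null_1989 lay inside. Ifi44 was at 8389, 10628, 2397 and 5038, and Cxcl10, a chemokine that draws T cells, at 879, 2002, 224 and 422, with at most 4926 and 860.0 in the 21. MHC class I and class II lists had median differences of 0.73 and 0.96, with PLK2null_1988 lowest in both. Chemokines and cytokines had a median difference of 0.87 over 19 genes, none of them outside the 21 in all 4 tumors. Cxcl1, which draws neutrophils, was at 1076, 1460.0, 784 and 478 against 52.7 to 715 (median, 276), and Csf2, the granulocyte and macrophage growth factor, at 42.7, 38.6, 25.4 and 40.999 against 0 to 35.1 (median, 2.91). In both genes 3 of the 4 tumors exceeded the 21.

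Markers of other cells in the tissue were summed and counted. Beside these counts, 7083 of all 17014 genes had a higher mean in the 4 tumors, so a lower mean was commoner. All 9 measured neutrophil markers had higher means, at a median difference of 1.12, and their summed level was 2159 to 5014 in the 4 tumors and 411 to 14299 in the 21. Macrophage markers summed to 15979 to 33133 against 7143 to 49159, and T and NK cell markers to 298 to 829.8 against 172 to 3018. PLK2null_1987, with the highest interferon-stimulated genes, also had the highest T and NK cell sum. The part of these cells in the interferon-stimulated genes was not tested. B and plasma cell markers had lower means for all 8 genes (-1.21), and adipocyte markers for all 9 (-1.80), with summed levels of 385 to 1053 against 314 to 54825. Fibroblast, pericyte and endothelial markers had median differences of -0.34, -0.51 and -0.43.

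**Figure D5:**
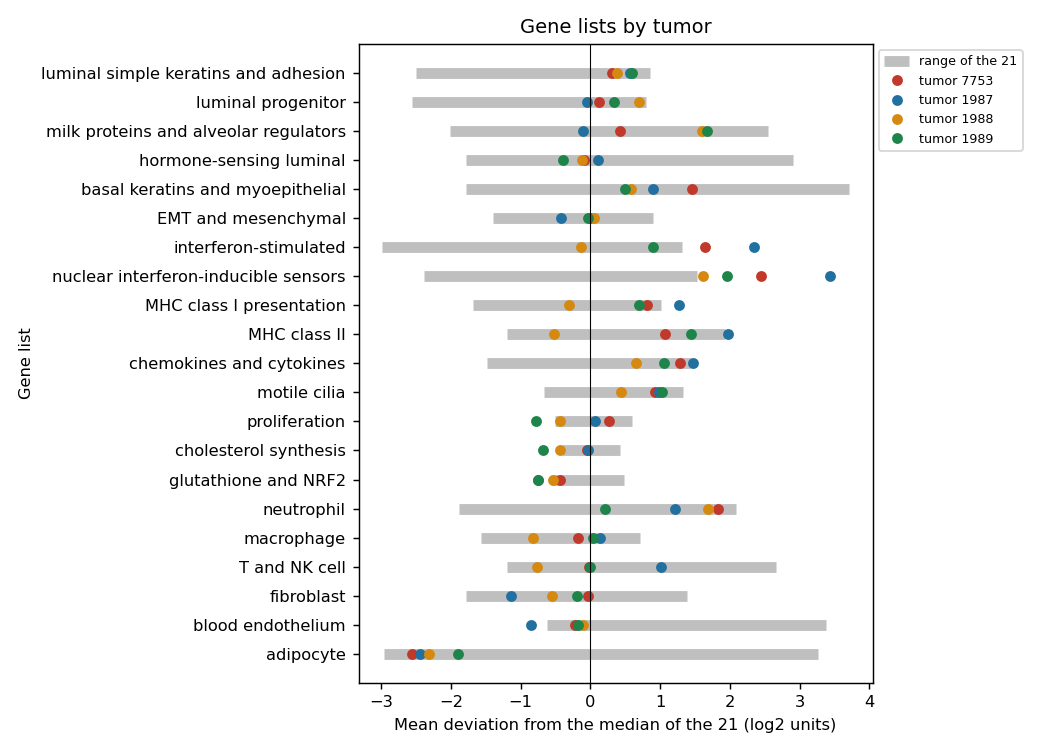
Mean deviation of the genes of 21 lists from the median of the 21 tumors (log2 units); colored points are the 4 tumors and grey bars the range of the 21. PLK2null_7753 and PLK2null_1987 lie above the bar for interferon-stimulated genes and all 4 lie above it for the nuclear interferon-inducible sensors, most of which lie on chromosome 1. The lists of these sensors and of motile cilia were written after Ifi204 and Foxj1, which they contain, were seen to be high.

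A few further lists held lowered genes. For genes of glutathione and NRF2 the median difference was -0.29 over 12 genes, and none lay below all 21 in every tumor. Gsta4, a glutathione transferase gene, was at 206, 116, 232 and 73.4, with a median of 765 in the 21. Gstp1, another transferase gene, was at 1439, 1433, 1587 and 1596 against 1582 to 4339 (median, 2833), with PLK2null_1988 and PLK2null_1989 just inside. Cholesterol synthesis genes had -0.42 over 14 genes, and mean deviations of -0.047, -0.037, -0.44 and -0.68, against -0.41 to 0.43 in the 21, so that PLK2null_1988 and PLK2null_1989 lay below. DNA repair genes had -0.23, and Hox genes -0.11. Collagens and matrix genes had a median of 0.0022, matrix metalloproteinases 0.60 and genes of hypoxia and glycolysis 0.087. The lists for squamous differentiation, the p53 pathway and Sox factors had 0.0043, -0.20 and 0.48.

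The 4 tumors also differed among themselves. PLK2null_7753, which carries another kind of number than the others, was above the other 3 with a mean difference of at least 1 in 427 genes, 2.51% of those measured. It was below them by as much in 431 genes, or 2.53%. A single tumor against 3 has no replicate error, and in any 4 tumors many genes are highest or lowest in one of them. The genes in which PLK2null_7753 stood farthest above were mostly low. Lmx1b, a homeobox gene, was at 75.5, 9.81, 11.98 and 10.8. Epha3, an ephrin receptor gene, was at 55.2, 4.29, 2.99 and 8.63, and Ogn, a matrix proteoglycan gene of stroma, at 32.8, 1.23, 4.49 and 4.32. In the other direction, Irx4, a homeobox gene, was at 35.5, 169.9, 400.4 and 374, Hoxa7 at 23.5, 95.5, 732.01 and 335 and Rprm, a cell cycle inhibitor gene, at 5.25, 21.5, 144 and 70.5. Slc12a3, a sodium-chloride cotransporter gene, was at 13.1, 51.5, 192 and 86.3, against at most 75.7 in the 21. In these 4 genes PLK2null_1988 was the highest and PLK2null_7753 the lowest.

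In the raised chromosome 1 segment the 4 medians lay between 1.06 and 1.48, and in the lowered one between -1.09 and -0.72. The PLK2null_7764 set had medians of 0.12 to 0.24 in the first and -0.18 to -0.044 in the second. In the chromosome 11 segments they had 0.039 to 0.077 and 0.039 to 0.18. Tagln2 was 17403 to 19978 in these tumors, Foxj1 156 to 469, Kcnh1 16.7 to 107 and D830026I12Rik 1.35 to 4.81.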

How the data were processed

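RNA from 41 mouse mammary tumors was sequenced from TruSeq mRNA libraries. The submitters' processing notes name STAR 2.7.6a, Salmon 1.4.0, Picard 2.22.4, SAMtools and mm10. The authors deposited, in a single table, estimated gene counts scaled so that the upper quartile of nonzero genes is 1000 in each tumor, treated here as a linear signal. No authors' comparison columns and 0 columns without a sample were present. Between 73.8% and 80.3% of nonzero values in a tumor lay within 0.1 of a whole read, so no count test was run.

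The values were analysed as log2(value + 1) with Python 3.11.15, numpy 2.4.6 and pandas 2.3.3. Genes with a mean below 10 were left out, which kept 17014 of 47480. Positions came from GENCODE vM21 (GRCm38), by symbol, and promoter sequences from RefSeq (GRCm38.p6). Because the 4 tumors were selected on these values, no test was run and no p-value is given. The members and gene lists were chosen with earlier results of these data known. Named genes were list members, the 20 protein-coding genes with the largest difference in each direction without overlap, up to 8 genes per segment and 8 in each direction in which PLK2null_7753 lay outside the other 3. A few genes at the borders of segments were chosen after their values were seen. The segment search was checked on simulated data with planted shifts. Genes varied independently there, so runs of neighbours that vary together were not covered. Alternatives changed the pseudocount, filter, scaling, windows, tumors and reference tumors. Some genes are not reported here.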

Additional observations from a re-analysis of the deposited data

Results flagged for a closer look

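Of 117 quantities examined within the 4 tumors, 6 had 1 tumor far from the other 3 by Dixon's criterion, which flags about 1 in 20 by chance. Smco3, on chromosome 6, was at 7.95 on log2(value + 1) in PLK2null_1988, a value of 247 where the others held 114 to 129.6. Tspan12, beyond Met on the same chromosome, was at 6.21 in PLK2null_1987, a value of 73.0 where the others held 419 to 491. The list of blood endothelium had a mean deviation of -0.85 in PLK2null_1987, against -0.23 to -0.11 in the others. The remaining 3 genes were at or near the floor of 3 reads. Tmc5 was at 0 in PLK2null_1987, where the others held 2.88 to 3.28. Tmsb15b1 was at 1.66 on the log2 scale in PLK2null_7753, and Tmigd1 at 0.73 in PLK2null_7753.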

How the results depend on the processing

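No segment outside the 21, no gene outside the 21 and neither Met nor its ratio to Capza2 reversed direction under the alternatives run. Lists, counts and genes that overlapped the 21 were not checked for reversal. The median difference over all genes, -0.11, was 0.025 against the 13 p53-/- tumors. Leaving out each of the 4 tumors in turn gave 127 to 186 genes above all 21 and 185 to 232 below, where 113 and 162 had been counted, since fewer tumors must clear the range. The highest count above came without PLK2null_1988, and 112 of the 113 genes were among these 186. The same step gave 15 to 24 raised segments and 18 to 22 lowered ones, against 15 and 14. With a pseudocount of 10 there were 9 raised and 8 lowered segments, and with a mean of at least 50 there were 7 and 8. Windows of 11 genes gave 44 and 52, and windows of 41 genes 6 and 5. Rescaling by trimmed means gave 9 raised segments, and 108 of the 113 genes above all 21 were among the 136 counted then. Against the 6 other tumors with 77xx numbers, 311 genes lay above and 485 below, with 24 raised and 24 lowered segments. Against the 13 p53-/- tumors, 1223 genes lay above and 909 below, with 73 and 59 segments. The raised chromosome 1 segment, at a median of 1.33, moved to 1.61 with a mean of at least 50, to 1.55 against the 6 tumors and to 1.67 against the 13. The Met difference of 2.996 moved to 4.17 against the 6, to 6.16 against the 13 and to 3.81 against 24 tumors, with PLK2null_732, PLK2null_733 and PLK2null_743 put back. The mean correlation within the 4 tumors, 0.70 over 2000 genes, was 0.77 over 500 genes. Beyond the number of tumors or genes in a setting, the cause of these shifts was not tested. Of single genes, 1760 values moved by less than the spread between tumors and 287 by more, and of gene lists 294 and 35. No paired analysis was possible because no label pairs a tumor of the 4 with one of the 21. Depth limits the genes near 3 reads, such as Kcnh1, Tmc5 and Spdef, whose differences are smaller with a larger pseudocount.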
